A study of Mus musculus with 8 samples.

Results

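Inflammasome genes were examined in bone marrow-derived macrophages (BMDM) cultured with or without bilirubin, the yellow pigment that cells make when they break down heme. The set was 9 genes, chosen by symbol for the role of their proteins and found in 9 of the 53819 rows of the gene table: the sensors *Nlrp3*, *Nlrc4*, *Naip2*, *Naip5* and *Aim2*, the adaptor *Pycard*, the caspases *Casp1* and *Casp4*, and the pore-forming effector *Gsdmd*. BMDM came from the marrow of 4 female Balb/cJ mice, aged 8 weeks and with no engineered allele named, and the cells of each mouse were kept in separate cultures. All cultures were differentiated for 5 days in M-CSF, the growth factor of macrophages, at 25 ng/mL, which was given again 2 days after plating. One culture of each mouse then received 2.5 µM bilirubin and the other received the DMSO vehicle, both for 48 hours, giving 8 poly-A RNA libraries. The comparison asked how bilirubin changed the transcripts of these macrophages, and treatment was compared within mice.

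Inflammasomes are protein complexes that assemble in the cytosol of macrophages when a sensor meets a sign of infection or damage. In the canonical pathway the sensor recruits ASC, the product of *Pycard*, which gathers caspase-1 so that it can cut the precursors of interleukin-1 beta and interleukin-18 and open gasdermin D, whose pores lyse the cell in pyroptosis. In the noncanonical pathway caspase-11, which mice encode in *Casp4*, binds lipopolysaccharide directly and cuts gasdermin D itself. Transcription of some of these genes rises on inflammatory signals, a step known as priming, while activation happens at the protein level, which RNA sequencing does not measure.

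Vehicle libraries held 37747315 to 47071714 counts and bilirubin libraries 34142781 to 41054034. All 9 genes were among the 13722 tested, with 464 to 3770 counts per library. All 8 macrophage marker genes were expressed. Their summed CPM (counts scaled to library size, with TMM factors from edgeR) was 24111 to 24451 in vehicle and 28567 to 30656 in bilirubin. Most of this sum was *Lyz2*, whose mean increased from 19145 to 24369 CPM. In the test used below, 4 of them (*Adgre1*, *Itgam*, *Lyz2* and *Cd14*) rose. The rest did not pass, with log2 fold changes of -0.16 (*Cd68*), -0.15 (*Mertk*), -0.20 (*Fcgr1*) and -0.02 (*Csf1r*). *Cd68* and *Mertk* were lower after bilirubin in every mouse. The 11 neutrophil markers summed to 141 to 167 CPM in vehicle and 172 to 200 CPM in bilirubin, of which most was *Mmp8*. Of the 4 that had enough counts to be tested, 1 rose, *S100a8*, from 11.5 to 24.4 CPM, while *Retnlg* was at 0 throughout, and *Ly6g* and *Camp* were at 0 in all vehicle libraries. Markers of dendritic, T, B, NK, mast, erythroid and megakaryocyte cells summed to at most 1.47 CPM per list and library, and stromal markers to between 2.21 and 7.93 CPM. The part of these differences in the results below was not tested. In bulk RNA, a change in the share of cells that express a gene cannot be told apart from a change of RNA per cell.

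Sequences are shown first where they bear on how far a gene's count can be read. *Naip2* and *Naip5* lie next to each other on the minus strand of chromosome 13 (GRCm39, 100278929 to 100338694 and 100348247 to 100382831), with 9552 bases between them. Their coding sequences share an unbroken run of 140 bases, the first 90 of which are bases 1746 to 1835 of the *Naip2* and 1614 to 1703 of the *Naip5* coding sequence. They are printed to show a stretch from which a read could come from either gene.
Naip2 and Naip5: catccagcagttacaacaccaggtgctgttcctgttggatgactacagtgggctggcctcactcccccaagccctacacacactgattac
Among all 31-base words of the main *Naip5* transcript, 53.2% also occur in transcripts of other genes (*Naip6* 36.7% and *Naip1* 22.9%), against 23.9% for *Naip2* (*Naip1* 15.1% and *Naip3* 14.8%). The *Naip2* share is that of the GENCODE model of 6297 bases, whereas the transcript quantified under the same identifier had 4356 bases, so it may differ for the latter. These were also the only 2 of the 9 genes whose estimated counts departed from whole numbers by more than 0.01, in 8 of 8 libraries, so their counts rest partly on how Salmon split shared reads. The main transcripts of *Nlrp3*, *Casp1*, *Casp4* and *Gsdmd* share no such word with another quantified gene. The share was 9.03% for *Aim2* and 3.49% for *Nlrc4*. Only transcripts that had been quantified were searched for these shares. For *Pycard* the share was 24.8%, all with *Gm45205*, an antisense gene whose exons overlap it. *Nlrc4*, *Casp1* and *Gsdmd* also have an opposite-strand exon overlap, with *Slc30a6*, *Gm67740* and *Gm62577*. Reads from such partners cannot be told apart without strand information, and the strandedness of the libraries is not given in the sources used here.

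*Casp1* and *Casp4* are neighbours on the plus strand of chromosome 9 (GRCm39, 5298508 to 5307290 and 5308828 to 5336783), with 1537 bases between the end of the first and the start of the second. The 250 bases before the start of the main transcript are printed for this pair, of which *Casp4* passed the test below and *Casp1* did not. They are also printed for *Nlrp3* on chromosome 11 (59432394 to 59457782, plus strand), whose priming is known to use NFκB. Capitals mark a match to the kappa B motif, searched on both strands as GGGA, 4 free bases and CC.
Nlrp3, GRCm39 chr11:59432144-59432393, plus strand: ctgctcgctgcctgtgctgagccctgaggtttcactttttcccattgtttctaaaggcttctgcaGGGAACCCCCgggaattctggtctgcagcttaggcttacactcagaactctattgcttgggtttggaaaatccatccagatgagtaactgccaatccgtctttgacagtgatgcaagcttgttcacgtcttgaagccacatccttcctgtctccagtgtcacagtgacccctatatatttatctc
Casp4, GRCm39 chr9:5308593-5308842, plus strand: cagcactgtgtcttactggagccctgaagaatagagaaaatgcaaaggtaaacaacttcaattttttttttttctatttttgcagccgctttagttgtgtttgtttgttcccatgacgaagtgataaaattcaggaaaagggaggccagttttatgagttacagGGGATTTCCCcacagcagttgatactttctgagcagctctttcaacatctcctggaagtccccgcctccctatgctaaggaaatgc
Casp1, GRCm39 chr9:5298258-5298507, plus strand: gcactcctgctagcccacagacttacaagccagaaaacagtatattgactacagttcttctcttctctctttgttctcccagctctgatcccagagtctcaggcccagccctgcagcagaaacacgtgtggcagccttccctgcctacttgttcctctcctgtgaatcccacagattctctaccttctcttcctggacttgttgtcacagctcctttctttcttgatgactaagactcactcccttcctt
The *Nlrp3* match, GGGAACCCCC, lies 185 to 176 bases before the transcript start. The *Casp4* match, GGGATTTCCC, lies 86 to 77 bases before the start and fits the pattern on both strands, so it was counted as 1 site. The end of the *Casp4* window overlaps an exon of another *Casp4* transcript. The windows of *Naip2*, *Aim2*, *Pycard* and *Gsdmd*, which are not printed, likewise overlap an exon of another transcript of their gene. The matches counted below were therefore searched partly in exon sequence. No match was found in the *Casp1* window. Of the 9 genes, *Nlrp3*, *Casp4* and *Pycard* had a match, against 19.5% of the 13627 windows of tested genes. Of these, *Nlrp3* and *Casp4* rose in the test below and *Pycard* did not pass, while *Gsdmd* rose without a match. Whether matches and rises were related was not tested. None of the 9 windows held the ISRE motif (GAAA, 2 free bases and GAAA), the GAS motif TTCNNNGAA or the PU.1 motif GAGGAAGT, which 3.33%, 6.41% and 2.29% of the windows held. A match describes the letters of the window, and binding was not measured.

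With bilirubin, *Casp4*, *Nlrp3* and *Gsdmd* rose, and none of the 9 genes fell. *Casp4* increased 1.49-fold, *Nlrp3* 1.32-fold and *Gsdmd* 1.20-fold (edgeR's quasi-likelihood test in a model of mouse and treatment, Benjamini-Hochberg adjusted p under 0.05 over all tested genes). Across all tested genes 7.53% passed, with 4.49% higher and 3.04% lower. Scaled by library size alone instead of TMM, the rising genes made up 48.7% of the passing genes in place of 59.6%. DESeq2 and limma-voom also called 3 of the 9 genes higher and 0 lower, and at an unadjusted p under 0.05 edgeR had 4 higher and 0 lower. The median log2 fold change of the 9 genes was 0.10, and that of all tested genes was -0.00. By mouse, *Nlrp3*, *Casp1*, *Casp4* and *Gsdmd* were higher by CPM in 4 of 4 mice, as were 14.5% of all tested genes. By CPM 0 of the 9 genes were lower in every mouse, as were 13.9% of all tested genes. In TPM, which divides by transcript length, *Casp1* was lower with bilirubin in mouse 4 (76.4 to 70.9) and *Gsdmd* in mouse 2 (58.4 to 55.9). By CPM, every bilirubin library lay above every vehicle library for *Casp4* and *Gsdmd*. Such a separation was seen upward in 5.93% of tested genes and downward in 4.69%. By TPM the *Gsdmd* groups overlapped.

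**Figure D1:**
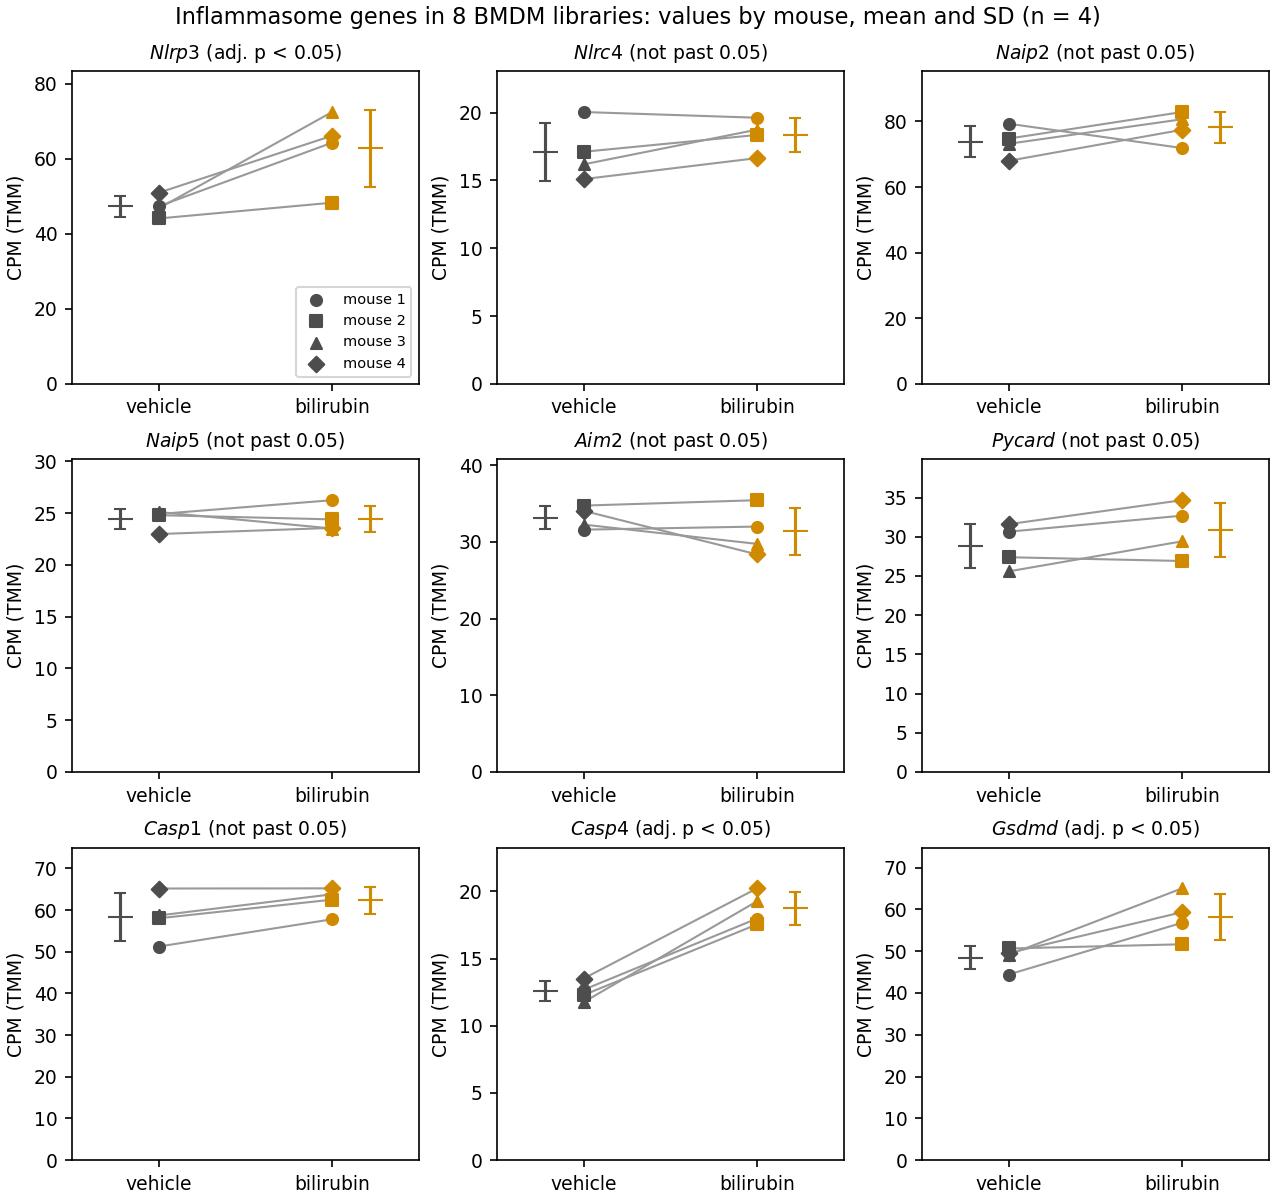
CPM (TMM-scaled) of the 9 inflammasome genes in the vehicle and bilirubin culture of each of 4 mice, joined by mouse, with the mean and SD of each group (n = 4) beside the points. The *Casp4* and *Gsdmd* points of the groups do not overlap, and the *Nlrp3* points overlap through mouse 2.

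*Nlrp3* encodes the sensor that responds to potassium efflux and other disturbances of the cell. It was at 47.3, 44.1, 46.8 and 51.0 CPM in the vehicle cultures of mice 1 to 4 and at 64.3, 48.3, 72.5 and 66.2 CPM in their bilirubin cultures. Bilirubin was higher in each mouse, least in mouse 2, whose bilirubin culture remained below the vehicle culture of mouse 4. The means were 47.3 ± 2.82 and 62.8 ± 10.3 CPM (SD, n = 4), and the log2 fold change was 0.40 (SE 0.07, 95% interval 0.23 to 0.56, edgeR adjusted p = 0.0126). The SD among bilirubin cultures was the larger one. *Nlrp3* did not pass without mouse 3 (adjusted p = 0.0847) or without mouse 4 (adjusted p = 0.0700), and passed in the other 10 of 12 alternative settings. Over all 12 its log2 fold change was between 0.32 and 0.48.

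The other sensors did not pass the test. *Nlrc4*, on chromosome 17 (74732433 to 74766165, minus strand), encodes the protein that polymerizes once a NAIP protein has bound its ligand. Its levels were 20.04, 17.1, 16.2 and 15.1 CPM in vehicle and 19.6, 18.4, 18.7 and 16.6 CPM in bilirubin cultures, with a log2 fold change of 0.11 (SE 0.06, adjusted p = 0.393) and overlapping groups. *Naip2*, whose protein binds rod proteins of bacterial secretion systems, was at 79.3, 74.8, 73.2 and 68.0 CPM under vehicle and at 71.9, 82.9, 80.6 and 77.4 CPM with bilirubin. It was lower with bilirubin in mouse 1 and higher in the other mice, for a log2 fold change of 0.08 (SE 0.06, adjusted p = 0.470). Without mouse 1, *Naip2* passed (log2 fold change 0.16, adjusted p = 0.0146, within a range of 0.0146 to 0.813 over 12 alternatives).

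*Naip5* encodes the receptor for bacterial flagellin. Its level was 24.9, 24.8, 25.1 and 23.0 CPM under vehicle and 26.2, 24.4, 23.5 and 23.6 CPM with bilirubin, and the log2 fold change of -0.00 (SE 0.05, adjusted p = 0.993) changed sign when mouse 2 or mouse 3 was left out (0.0052 and 0.028). Because reads are shared within this family, *Naip1*, *Naip2*, *Naip5* and *Naip6* were also summed, which gave within-mouse log2 differences of -0.04, 0.09, 0.07 and 0.12. The summed family thus moved less than *Nlrp3* in each mouse.

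*Aim2*, on chromosome 1 (173178445 to 173293930, plus strand), encodes a sensor of cytosolic double-stranded DNA. It was at 31.6, 34.7, 32.3 and 34.05 CPM under vehicle and at 31.996, 35.4, 29.7 and 28.4 CPM with bilirubin. Mice 1 and 2 were marginally higher and mice 3 and 4 lower with bilirubin, with a log2 fold change of -0.08 (SE 0.06, adjusted p = 0.497). *Aim2* thereby had the lowest fold change of the 9 genes.

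*Pycard*, on chromosome 7 (127588558 to 127593039, minus strand), encodes the adaptor ASC, which joins sensors to caspase-1. It was at 30.6, 27.4, 25.6 and 31.6 CPM under vehicle and at 32.7, 26.9, 29.4 and 34.7 CPM with bilirubin. The groups overlapped, 3 of 4 mice were higher, and the log2 fold change was 0.10 (SE 0.05, adjusted p = 0.328).

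*Casp1* encodes the caspase of the canonical pathway. It was at 51.2, 58.0, 58.7 and 65.2 CPM under vehicle and at 57.8, 62.5, 63.8 and 65.2 CPM with bilirubin. The difference within mice was small beside the difference between mice, and in mouse 4 it was 0.00 on the log2 scale. The log2 fold change was 0.10 (SE 0.04, 95% interval 0.00 to 0.19), and with an adjusted p of 0.217 *Casp1* did not pass in edgeR's test.

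*Casp4* encodes caspase-11, the lipopolysaccharide receptor of the noncanonical pathway. It was at 12.7, 12.3, 11.8 and 13.5 CPM in the vehicle cultures of mice 1 to 4, from 603, 464, 513 and 575 counts. With bilirubin it was at 18.0, 17.6, 19.3 and 20.2 CPM, from 625, 634, 773 and 813 counts. Every bilirubin culture was above every vehicle culture. The means were 12.6 ± 0.742 and 18.8 ± 1.22 CPM (SD, n = 4), and the log2 fold change of 0.58 (SE 0.06, 95% interval 0.44 to 0.72, edgeR adjusted p = 0.00108) was the highest of the set. The within-mouse differences lay close together, at 0.50, 0.51, 0.71 and 0.58 on the log2 scale, and *Casp4* passed in all 12 alternatives, where the largest adjusted p was 0.0480.

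*Gsdmd*, on chromosome 15 (75733974 to 75739257, plus strand), encodes the protein that both caspases cut to form the pore. It was at 44.4, 50.6, 49.2 and 49.6 CPM under vehicle and at 56.8, 51.7, 65.0 and 59.3 CPM with bilirubin. The groups did not overlap by CPM. The bilirubin culture of mouse 2 exceeded its own vehicle culture by only 0.03 on the log2 scale, against 0.35, 0.40 and 0.26 in mice 1, 3 and 4. By TPM, mouse 2 was lower with bilirubin (58.4 with vehicle and 55.9 with bilirubin), and the groups overlapped. The means were 48.4 ± 2.76 and 58.2 ± 5.56 CPM (SD, n = 4), for a log2 fold change of 0.26 (SE 0.06, 95% interval 0.12 to 0.40, edgeR adjusted p = 0.0393). *Gsdmd* was the least secure of the 3 calls and passed in 7 of 12 alternatives. Leaving out mouse 3 gave an adjusted p of 0.241 and leaving out mouse 4 one of 0.171, and the adjusted p was 0.106 with an offset for transcript length, 0.0698 with scaling by library size alone, and 0.0525 without the mouse in the model.

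For the 6 genes that did not pass, the 95% intervals of the log2 fold change ran from -0.22 at the lowest to 0.24 at the highest, or from 0.859-fold to 1.18-fold. Among the vehicle cultures the coefficient of variation of the 9 genes was between 4.04% and 12.4%.

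**Figure D2:**
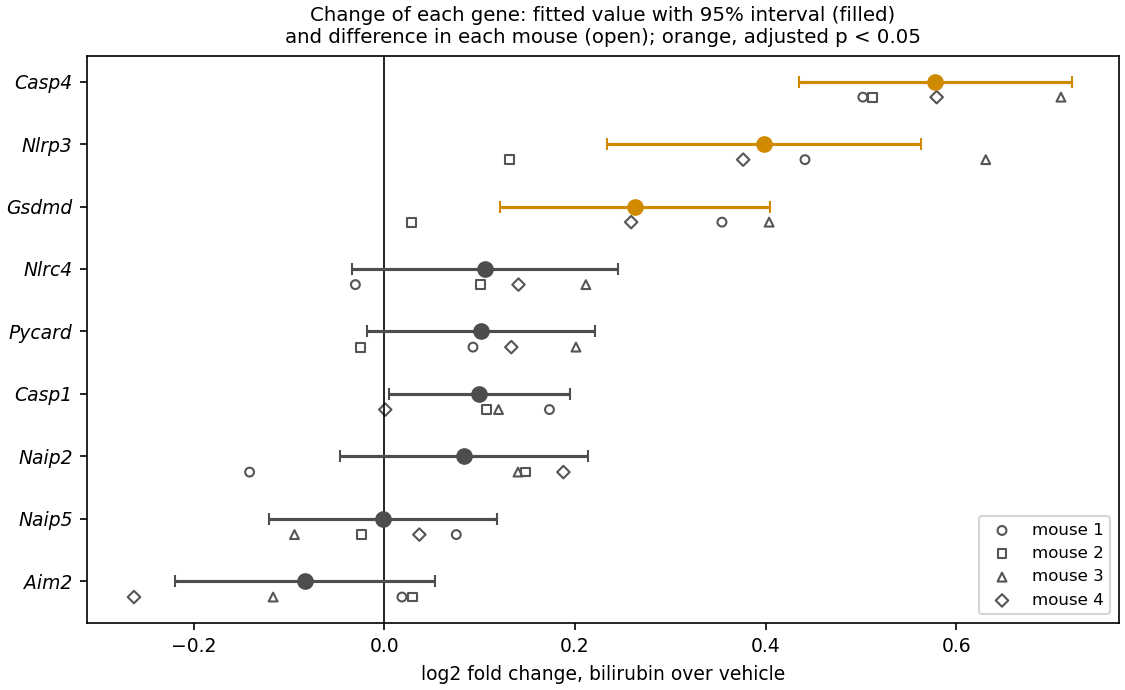
Log2 fold change of bilirubin over vehicle for each of the 9 genes (x axis), ordered by size, with the edgeR estimate and its 95% interval (filled, orange where the adjusted p is under 0.05) and the difference in each mouse (open symbols). *Casp4*, *Nlrp3* and *Gsdmd* stand above the rest, at 0.58, 0.40 and 0.26, and mouse 2 gave the lowest difference for *Nlrp3* and *Gsdmd*.

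*Casp4* and *Casp1* were also compared within each library, since their rows of counts share depth and scaling. The ratio of *Casp4* to *Casp1* counts was 0.248, 0.212, 0.200 and 0.208 with vehicle and 0.311, 0.281, 0.302 and 0.310 with bilirubin. It was higher with bilirubin in 4 of 4 mice, by 0.48 ± 0.13 on the log2 scale (SD, n = 4 mice). A two-sided exact permutation test gave p = 0.13, which is the smallest value that 4 pairs allow, and an adjusted p of 0.188 over the 3 ratios computed. *Nlrp3* over *Casp1* was higher in 4 of 4 mice, by 0.30 ± 0.21 (exact p = 0.13, n = 4), and *Gsdmd* over *Casp1* differed by 0.16 ± 0.17 with mouse 2 at -0.08 (exact p = 0.25, n = 4). The design could not place any of these ratios under 0.05, and *Casp1* was taken as the denominator after the values were seen.

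Levels between genes were compared in TPM, which divides by transcript length. With vehicle the order was *Casp1* (69.1 ± 5.77 TPM, SD, n = 4), *Gsdmd* (54.1 ± 3.89 TPM), *Pycard* (50.7 ± 6.99 TPM), *Aim2* (45.6 ± 2.75 TPM), *Naip2* (26.3 ± 1.91 TPM), *Casp4* (19.5 ± 2.08 TPM), *Nlrp3* (19.5 ± 1.26 TPM), *Naip5* (7.56 ± 0.311 TPM) and *Nlrc4* (6.28 ± 0.883 TPM). The ranges over mice overlapped between *Gsdmd* and *Pycard*, *Pycard* and *Aim2*, *Casp4* and *Nlrp3*, and *Naip5* and *Nlrc4*, so the order within these pairs was not beyond their spread. *Casp1* and *Gsdmd* were thus at higher TPM than every sensor in vehicle cultures. *Aim2* was the sensor at the highest summed TPM, though by CPM *Naip2* and *Nlrp3* were above it. Of the *Aim2* sum, 20.5 TPM came from its main transcript of 2079 bases and 13.3 TPM from one of 744 bases. By main transcript alone *Aim2* was above *Nlrp3* (16.1 TPM) and *Naip2* (14.2 TPM), but below the summed TPM of *Naip2*. With bilirubin *Casp4* (27.1 ± 3.30 TPM) and *Naip2* (26.9 ± 1.11 TPM) changed places, with overlapping ranges, and the order was otherwise the same. *Nlrp3* was then at 25.5 ± 4.68 TPM and *Gsdmd* at 64.1 ± 5.67 TPM. The place of *Pycard* depends on its annotation, since 83.0% of its TPM came from a transcript of 493 bases and the other is 3800 bases long.

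**Figure D3:**
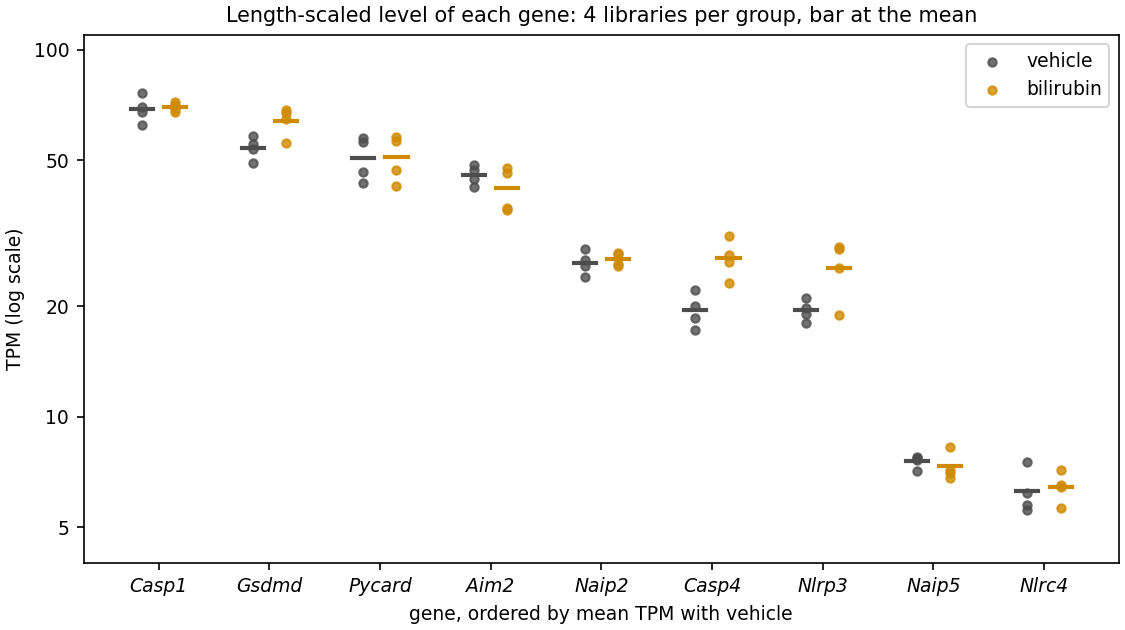
TPM of each gene on a log axis in the 4 vehicle (grey) and 4 bilirubin (orange) libraries, ordered by mean TPM with vehicle, with a bar at each mean. Levels run from 69.1 TPM for *Casp1* to 6.28 TPM for *Nlrc4* with vehicle, and the *Casp4* groups are apart.

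Most of the TPM of a gene came from 1 transcript in *Nlrp3* (82.1% with vehicle and 79.7% with bilirubin), *Nlrc4* (80.9% and 84.6%), *Casp1* (88.3% and 91.3%), *Casp4* (67.6% and 72.4%) and *Gsdmd* (80.5% and 76.2%). *Naip5* had a single transcript. The make-up was more even in *Naip2*, whose main transcript held 53.4% and 48.1%, and in *Aim2*, at 45.0% and 44.9%. The main *Casp4* transcript was at 12.4 to 14.4 TPM with vehicle and at 18.1 to 20.5 TPM with bilirubin, so its groups did not overlap either. Transcript shares are estimates of Salmon and were not tested.

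Over the 8 libraries, the levels of the 3 genes that rose varied together. Pearson's r of log2 CPM was 0.898 for *Nlrp3* and *Gsdmd*, 0.853 for *Nlrp3* and *Casp4*, and 0.835 for *Casp4* and *Gsdmd*. Since these 3 were picked for rising with bilirubin, high values among them follow in part from that choice. The lowest value among all pairs was -0.76 for *Nlrp3* and *Aim2*. Among 10905 expressed genes, those most like *Nlrp3* were *Ptpn6* (r = 0.991), *Tmod3* (0.978) and *Marcksl1* (0.972). Most like *Casp4* were *Cd302* (0.991), *Arl6ip5* (0.986) and *Birc3* (0.986), and most like *Gsdmd* were *Nfyc* (0.973), *Tcf12* (0.970) and *Plpp1* (0.969). These values describe libraries that share the treatment and the mice, and carry no test.

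The genes around the inflammasome were read from 11 lists with 132 gene symbols, of which 128 were in the table and 111 were tested. Of these, 24 rose and 1 fell, or 22.5% past the threshold against 7.53% of all tested genes, and the median log2 fold change was 0.11. The lists were chosen with earlier results of these data known, so these shares are a description and carry no test. Of the listed genes, 10 passed without mouse 3 and 13 without mouse 4, against 25 with all mice. Over all genes the count also dropped, from 1033 to 377 without mouse 3 and 441 without mouse 4. The genes named below that passed in all 12 alternatives were *Mefv*, *P2rx4*, *Tlr2*, *Traf6*, *Tnfrsf1b*, *Birc3*, *Il1b*, *Il1a* and *Il1rn*.

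Among the substrates of the pathway and their receptors, 3 of 5 tested genes rose. *Il1b*, the interleukin that caspase-1 matures, rose from 0.803 ± 0.353 to 5.91 ± 3.50 CPM (SD, n = 4), a log2 fold change of 2.80 (SE 0.28, edgeR adjusted p = 7.1e-04). *Il1a*, which also leaves cells through gasdermin pores, rose from 0.217 ± 0.137 to 2.50 ± 0.883 CPM (log2 fold change 3.51). *Il1rn*, which encodes the antagonist of the interleukin-1 receptor, rose from 34.3 ± 4.34 to 49.4 ± 8.49 CPM (log2 fold change 0.52). *Il18*, the other substrate of caspase-1, was at 3.11 ± 0.489 CPM in vehicle and 3.16 ± 0.620 CPM in bilirubin cultures (SD, n = 4), a log2 fold change of 0.02 (adjusted p = 0.974) whose sign depended on scaling and on the mice included.

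Among the other sensors, 2 of 13 tested genes rose. *Mefv*, which encodes the inflammasome sensor pyrin, rose from 11.9 ± 1.46 to 38.2 ± 9.09 CPM (SD, n = 4), a log2 fold change of 1.67 (SE 0.08, edgeR adjusted p = 3.1e-05) and the clearest rise of a sensor. *Nod2*, a sensor of bacterial muramyl dipeptide, rose from 5.52 to 7.49 CPM (log2 fold change 0.44) but failed in 5 of the alternatives, with adjusted p-values of 0.0953, 0.161 and 0.0911 when mouse 2, 3 or 4 was left out. Of the 8 tested genes of the PYHIN family, to which *Aim2* belongs, 0 passed in edgeR, DESeq2 or limma-voom, and 2 were higher at an unadjusted p under 0.05 in edgeR. Without a filter on low counts, 3 genes of the family passed in edgeR, all higher. The median log2 fold change of the 8 genes was 0.27. *Nlrp2* and *Nlrp6* were at 0 in all libraries.

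On the list of GTPases linked to the exposure of bacterial lipopolysaccharide to caspase-11, 4 of 9 tested genes rose, with a median log2 fold change of 0.57. *Gbp2* rose from 5.30 to 8.38 CPM (log2 fold change 0.65), *Gbp3* had 0.73, *Gbp5* 1.44 and *Gbp7* 0.83. Levels were low, at under 10 CPM, and without mouse 3 the adjusted p-values in edgeR were 0.128, 0.259, 0.107 and 0.179, and without mouse 4 0.109, 0.143, 0.138 and 0.131, so that 0 of the 9 passed in either.

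Priming receptors and adaptors held 4 genes that rose and 1 that fell among 16. *Tlr2*, a receptor for bacterial lipoproteins, rose from 52.6 ± 2.17 to 126 ± 21.0 CPM (SD, n = 4), a log2 fold change of 1.25. *Tnfrsf1b*, a receptor of TNF, rose by 0.41 and *Cd14*, the co-receptor of lipopolysaccharide, by 0.29 on the log2 scale. *Traf6*, the ubiquitin ligase downstream of Toll-like receptors, fell by 0.29 on the log2 scale, from 55.9 ± 2.98 to 45.5 ± 2.15 CPM (SD, n = 4). *Ifnar1*, a subunit of the type I interferon receptor that is named here after its values were seen, rose by 0.18 and did not pass without mouse 2, 3 or 4 (adjusted p = 0.0568, 0.241 and 0.224).

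Among the 16 genes of NLRP3 activation and ion flux, 2 rose. They were *P2rx4*, an ATP-gated channel (116 to 149 CPM, log2 fold change 0.36), and the kinase gene *Syk* (353 to 410 CPM, log2 fold change 0.22), whose adjusted p was 0.0666 without mouse 3 and 0.0586 without mouse 4. Of 10 transcription factors known to act on inflammasome genes, *Nfe2l2* (NRF2) rose by 0.19 on the log2 scale and did not pass without mouse 2, 3 or 4 (adjusted p = 0.0551, 0.112 and 0.163). The list named inhibitors, which also holds an adaptor and inhibitors of apoptosis, had 12 tested genes, of which 3 rose. Their log2 fold changes were 0.76 for *Birc3*, an inhibitor of apoptosis protein, 0.23 for *Pstpip1*, a pyrin-binding adaptor, and 0.38 for *Tnfaip3*, which encodes the NFκB inhibitor A20. *Tnfaip3* did not pass without mouse 2, 3 or 4 (adjusted p = 0.149, 0.241 and 0.173), nor *Pstpip1* without mouse 3 or 4 (adjusted p = 0.0620 and 0.0541).

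Downstream of the pore, *Ninj1*, which encodes the protein that ruptures the plasma membrane of dying cells, was the 1 of 6 tested genes among other caspases, gasdermins and rupture genes to rise. It went from 170 ± 9.24 to 215 ± 26.8 CPM (SD, n = 4), a log2 fold change of 0.33, and its adjusted p was 0.0508, 0.0847 and 0.0546 without mouse 2, 3 and 4. The gasdermin genes *Gsdma*, *Gsdma2* and *Gsdma3* were at 0 in all libraries and *Gsdmc* reached at most 0.221 CPM, and *Gsdmd* and *Gsdme* were the tested gasdermins. Of 10 tested membrane repair genes, ESCRT-III subunits and annexins, 2 rose, the annexins *Anxa1* and *Anxa2*, by 0.30 and 0.25 on the log2 scale, and neither annexin passed without mouse 3 (adjusted p = 0.0709 and 0.0512). Of 7 necroptosis and extrinsic death genes, *Mlkl*, the membrane-disrupting effector of necroptosis, rose from 17.6 to 23.0 CPM (log2 fold change 0.38) and the death receptor gene *Fas* rose by 0.82. Without mouse 3 their adjusted p-values in edgeR were 0.0508 and 0.0931, and that of *Fas* was 0.0627 without mouse 4.

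**Figure D4:**
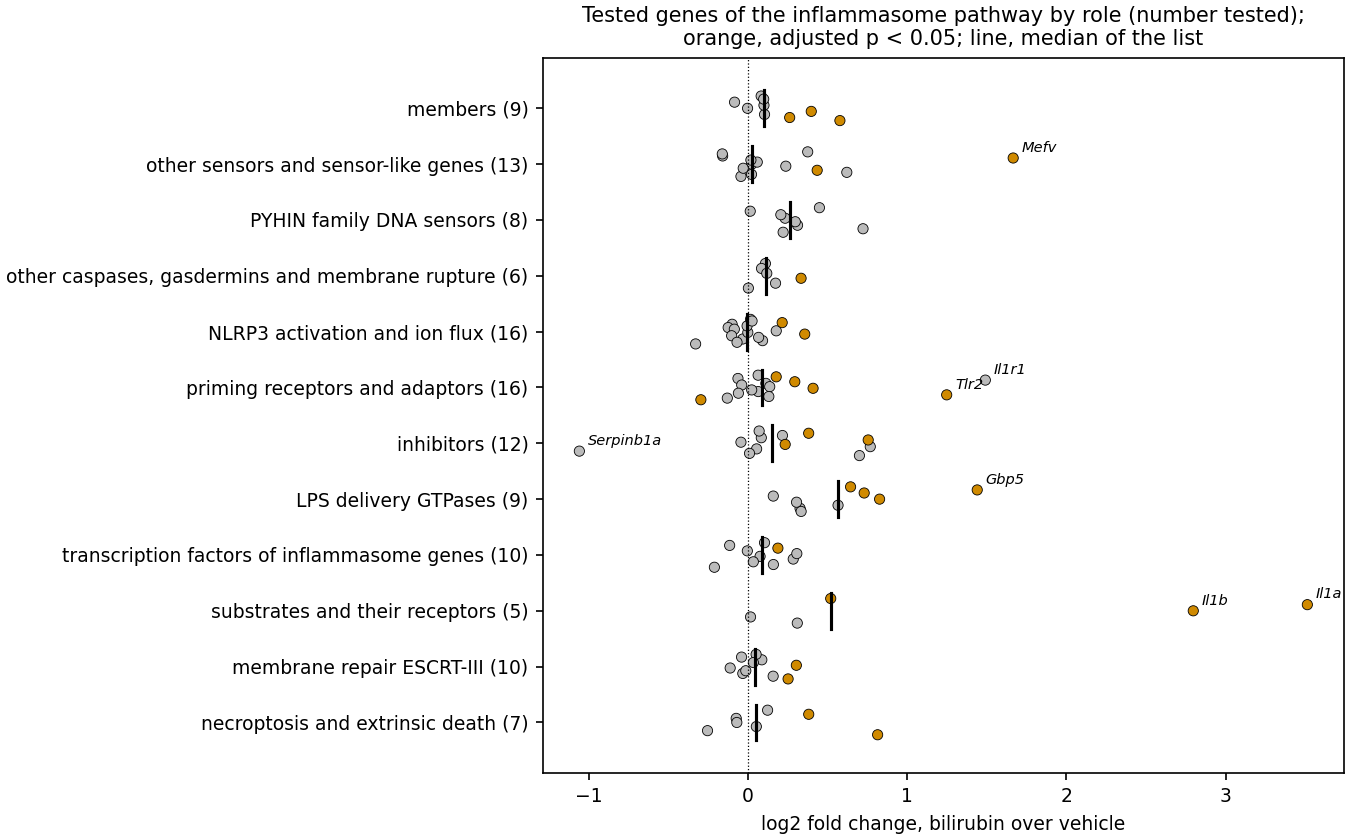
Log2 fold change of bilirubin over vehicle (x axis) for each tested gene of the 9 inflammasome genes and of 11 lists around them, with the number tested in brackets, genes with an adjusted p under 0.05 in orange and the median of each list as a line. The substrates *Il1a* and *Il1b* lie farthest to the right, at 3.51 and 2.80, from low vehicle means of 0.217 and 0.803 CPM. *Mefv* follows at 1.67, while the 9 inflammasome genes lie between -0.08 and 0.58.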

How the data were processed

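RNA of 8 BMDM cultures was compared, a vehicle and a bilirubin culture from each of 4 mice. According to the methods and the submitters' processing notes, reads were demultiplexed with bcl2fastq 2.20.0.422, trimmed with Trim Galore 0.6.7 and Cutadapt 3.4, aligned to GRCm39 with STAR 2.7.9a, quantified with Salmon 1.10.1 and summed per gene with tximport in R 4.2.2. The authors deposited unnormalized estimated counts (expected counts) per gene. For each library the authors also deposited estimated counts and TPM, which is scaled for transcript length and library size, for every transcript. GRCm39 derives from C57BL/6J, whereas the cells were Balb/cJ, so reads at strain differences may be assigned less well.

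Counts were rounded and fitted in R 4.3.3 with edgeR 4.0.16 (TMM, filterByExpr with a minimum count of 10, quasi-likelihood test, mouse and treatment as terms), with Benjamini-Hochberg adjustment over 13722 genes and a threshold of 0.05. Standard errors were derived from the F statistics. Mice were taken as pairs from the labels. The deviations of the 2 cultures of a mouse from their group means correlated at 0.11, 0.13, 0.11 and -0.01, against at most 0.08 for different mice. TPM was summed per gene, and CPM for single libraries used TMM, with a prior count of 2 on the log2 scale. Positions, transcript words of 31 bases and windows of 250 bases came from GRCm39 with the GENCODE annotation.

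The 9 members and the gene lists were chosen with earlier results of these data known. The text names all members, up to 4 genes per list by smallest adjusted p, *Il1b* and *Il18*, and the 3 genes most correlated with each member that passed, among genes whose mean log2 CPM was 1 or more. The alternatives were a model without the mouse, DESeq2 1.42.0, limma 3.58.1 (voom), scaling by DESeq2's size factors or by library size only, no filter, a filter of CPM above 1 in 4 libraries, a length offset on the transcript counts, and each mouse left out. Raw reads were not analysed here.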

Additional observations from a re-analysis of the deposited data

Results flagged for a closer look

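For the 9 genes, 27 groups of 4 values were checked for a value far from the others, and chance flags about 1 in 20 such groups. The within-mouse log2 difference of *Naip2* was -0.14 in mouse 1, while it was 0.14 to 0.19 in the other mice. The level of *Naip5* in the vehicle culture of mouse 4 was 4.53 on the log2 CPM scale, while the other vehicle cultures were at 4.63 to 4.65.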

How the results depend on the processing

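Of 108 values, the 9 genes under 12 alternatives, 98 kept their direction and their side of the threshold. When a mouse was left out, the number of the 9 genes past the threshold ran from 1 to 4, all higher, and was 1 without mouse 3 or mouse 4 (*Casp4*). Over all genes it ran from 377 to 1910 (265 to 1026 higher and 112 to 884 lower), and over the listed pathway genes from 10 to 31 (9 to 28 higher and 1 to 3 lower). In the model without the replicate block, which ignores the pairing by mouse, 2 of the 9 genes passed (*Gsdmd* did not), 686 of all genes passed and 228 of these were lower, and no other member's call changed, while *Nod2*, *Cd14*, *Tnfaip3* and *Anxa2* did not pass (adjusted p = 0.0715, 0.0775, 0.112 and 0.0552, edgeR). No filter on low counts gave 1692 genes (774 lower) and 41 listed genes (37 higher and 4 lower), and a length offset gave 579 genes (372 higher and 207 lower). Among listed genes DESeq2 called 2 lower and scaling by library size alone 4. *Naip5* ranged from -0.030 to 0.028 and *Il18* from -0.095 to 0.13 when a mouse was left out, and *Il18* was at -0.0087 with library size alone. The cause of these shifts was not tested. By CPM in place of TPM the vehicle order was *Naip2* (1), *Casp1* (2), *Gsdmd* (3), *Nlrp3* (4), *Aim2* (5), *Pycard* (6), *Naip5* (7), *Nlrc4* (8) and *Casp4* (9), since CPM counts more reads for longer transcripts. The 9 genes had 464 or more counts in every library, 4 mice limit the precision, and protein and cleavage were not measured.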
